A study of Mus musculus with 2 samples.

Results

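The genes described here encode splicing factors of the SR, hnRNP and SF3 groups, as read in stimulated CD8 T cells of the mouse. They were taken by name: every gene whose symbol begins with Srsf, Hnrnp, Hnrpd, Hnrpll, Sf3a or Sf3b, and for each gene the transcript row whose mean over the libraries was highest. This gave 40 of the 24013 gene symbols in the deposited table, 11 SR genes, 20 hnRNP genes, 3 SF3A genes and 6 SF3B genes, which together have 84 transcript rows. There were 2 RNA samples from spleen cells of C57BL/6 mice, 1 library from wild-type animals aged 7 weeks and 1 library from DGKζ-/- animals aged 6 weeks. In both, naive CD8 T cells were purified with a kit and kept for 24 hours on plates coated with antibodies to CD3 and CD28, so neither library holds unstimulated cells. DGKζ is diacylglycerol kinase ζ, a lipid kinase that removes the diacylglycerol made after T cell receptor engagement. The labels give neither the number of animals behind a library nor their sex. The comparison asks how transcript levels of stimulated CD8 T cells differ without DGKζ, and with 1 library per genotype no difference has a replicate check.

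Pre-mRNA splicing removes introns, and the genes here act at its first steps. SR proteins bind exonic enhancers through RNA recognition motifs and recruit the spliceosome through domains rich in arginine and serine, whereas hnRNP proteins coat nascent RNA and often silence the exons they bind. SF3A and SF3B are the protein complexes of the U2 snRNP (a small nuclear ribonucleoprotein) that hold it on the branch point of the intron. Many SR and hnRNP genes limit their own output by including an exon with a premature stop codon, which sends the transcript to nonsense-mediated decay, and in T cells hnRNP LL governs the activation-dependent splicing of the CD45 gene Ptprc.

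Values are normalized counts, which are reads divided by 1 size factor per library, and the log2 ratio is that of the deficient over the wild-type library after adding 10 to each. Folds are given without that addition and carry a 95% counting interval, which covers counting error only. Values are not divided by transcript length, so levels are compared between libraries and not between genes. As a check of the labels, Dgkz had 6714 normalized counts in the wild-type and 2591 in the deficient library, which is 2.59-fold lower (2.46 to 2.74), and the labels do not name the deleted exons. Xist, the noncoding RNA that coats an inactive X chromosome, stood at 14.0 and 9206. Genotype, age and sex cannot be told apart in these data. The CD8 T cell markers were abundant in both libraries (43329 and 36166 normalized counts summed over 7 genes), with Cd8a at 13090 and 8455. Markers of B cells summed to 3190 and 2355, with 0 of 9 compared genes above 0, those of CD4 and regulatory T cells to 510 and 427, of NK cells to 1957 and 2634 (Eomes, which CD8 T cells also express, at 956 and 1861, and Klrd1 at 395 and 134), of myeloid cells to 281 and 319, and of erythroid cells and platelets to 68.2 and 58.3. The 18 G2/M cell division genes had a median log2 ratio of 0.73, with none below 0. Of 10 genes of naive and quiescent T cells, 9 were below 0 and the median was -0.58. Among the genes past 2-fold in these lists were Nusap1 (log2 ratio 1.03), Klf2 (-2.09), S1pr1 (-1.22), H2-Eb1 (-1.14), Cd4 (-1.52) and Klrd1 (-1.49). The part of these differences in the values below was not tested, and in bulk RNA fewer cells of a type and less RNA per cell cannot be told apart.

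The splicing factor genes were read at close to the same level in both libraries. They took 506641 of 37211969 reads in the wild-type library and 179112 of 13464169 in the deficient one, which is 1.36% and 1.33%. A gene was compared where its mean reached 50 normalized counts, which 10518 genes of the table and 39 of the 40 splicing factor genes did. The exception was Srsf12, an SR-like splicing repressor, at 29.2 and 27.4 normalized counts (50 and 16 reads). None of the 39 was at least 2-fold higher in the deficient library, where 1.30% of all compared genes were, and none was at least 2-fold lower, where 1.29% were, or 2.60% in either direction. At the smaller threshold of 0.5 on the log2 scale, 0 were higher (6.27% of all compared genes) and 2 were lower (6.75%), while 13.0% of all compared genes passed it in either direction. The 2 were Sf3a2 and Hnrnpd. The other 37, or 94.9%, lay within 0.5 of 0, beside 87.0% of all compared genes and 91.4% of the 4812 genes with a mean of at least 1000.

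The median log2 ratio of the 39 genes was 0.070, with quartiles at -0.077 and 0.19, next to a median of 0.055 with quartiles at -0.14 and 0.22 for all compared genes. Their log2 ratios ran from -0.58 to 0.34. They were above 0 in 25 of the 39 genes, a share of 64.1% against 58.2% of all compared genes, so the direction of the set was near the background. When both libraries were scaled to equal totals, the median became -0.020 and 8 genes turned from above to below 0, namely Hnrnph1, Hnrnph2, Hnrnpl, Hnrnpul1, Hnrnpul2, Srsf4, Srsf7 and Srsf10. Under that scaling the compared genes past 0.5 were 473 higher and 970 lower, in place of 660 and 710. The counting interval of the fold lay above 1 for 20 genes, below 1 for 11 and across 1 for 8. Most of these small differences are thus larger than counting error, which does not say that they exceed the difference between cultures. Such intervals were not counted over all compared genes, so these numbers show nothing particular to the splicing factor genes.

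**Figure D1:**
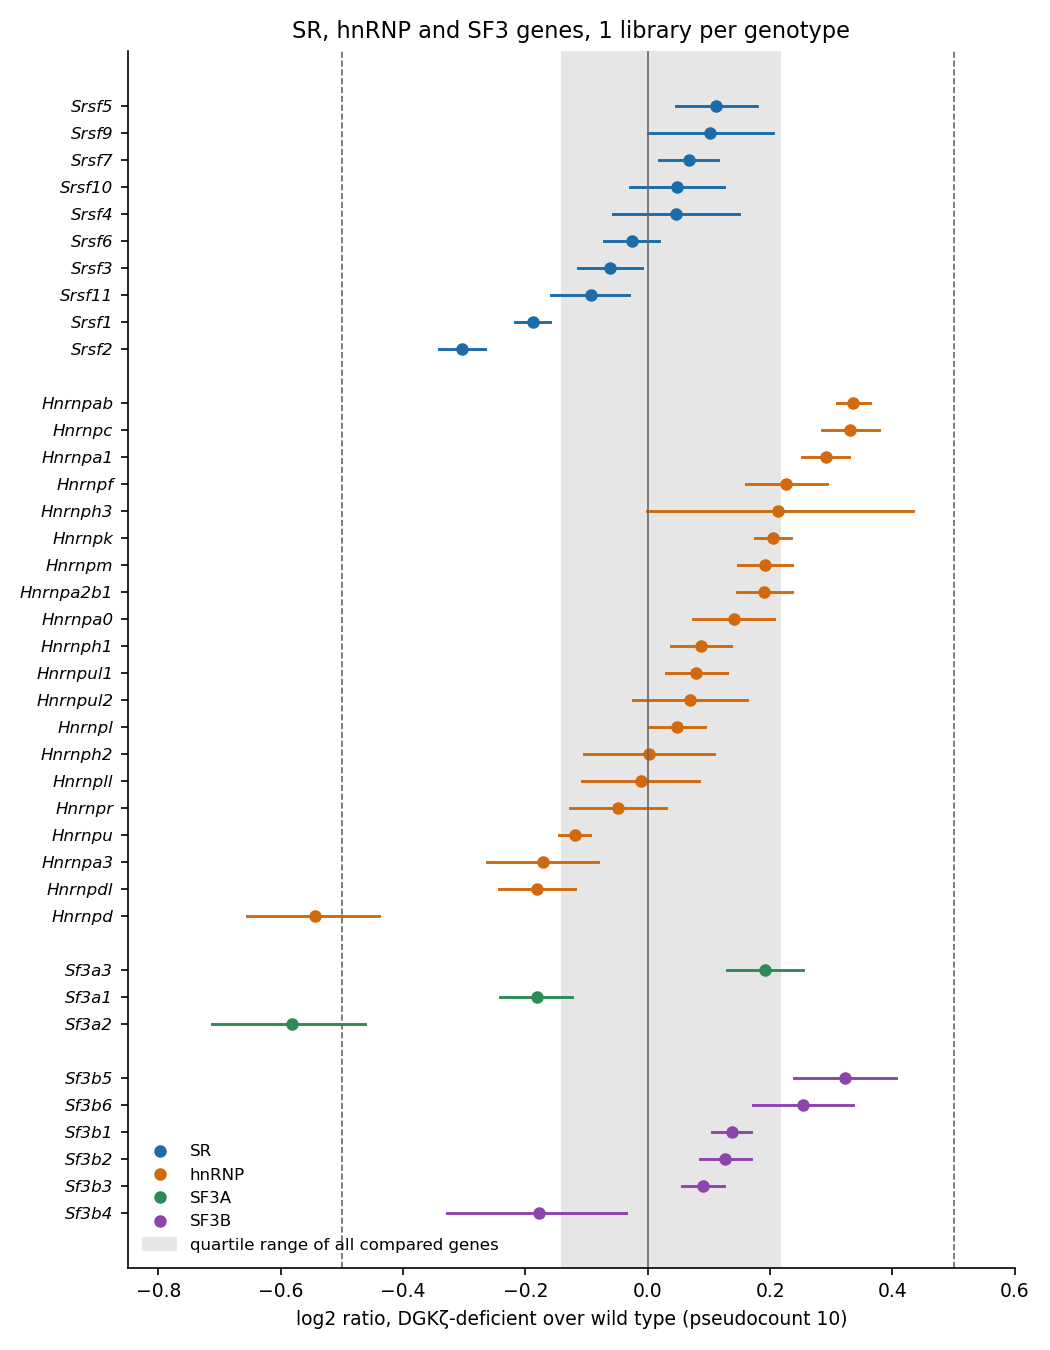
Log2 ratio (deficient over wild type, pseudocount of 10) of each compared splicing factor gene, with the 95% counting interval as a line and 1 library per genotype. The grey band is the quartile range of all compared genes (-0.14 to 0.22), the dashed lines mark -0.5 and 0.5, and Sf3a2 and Hnrnpd lie beyond the lower one.

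**Figure D2:**
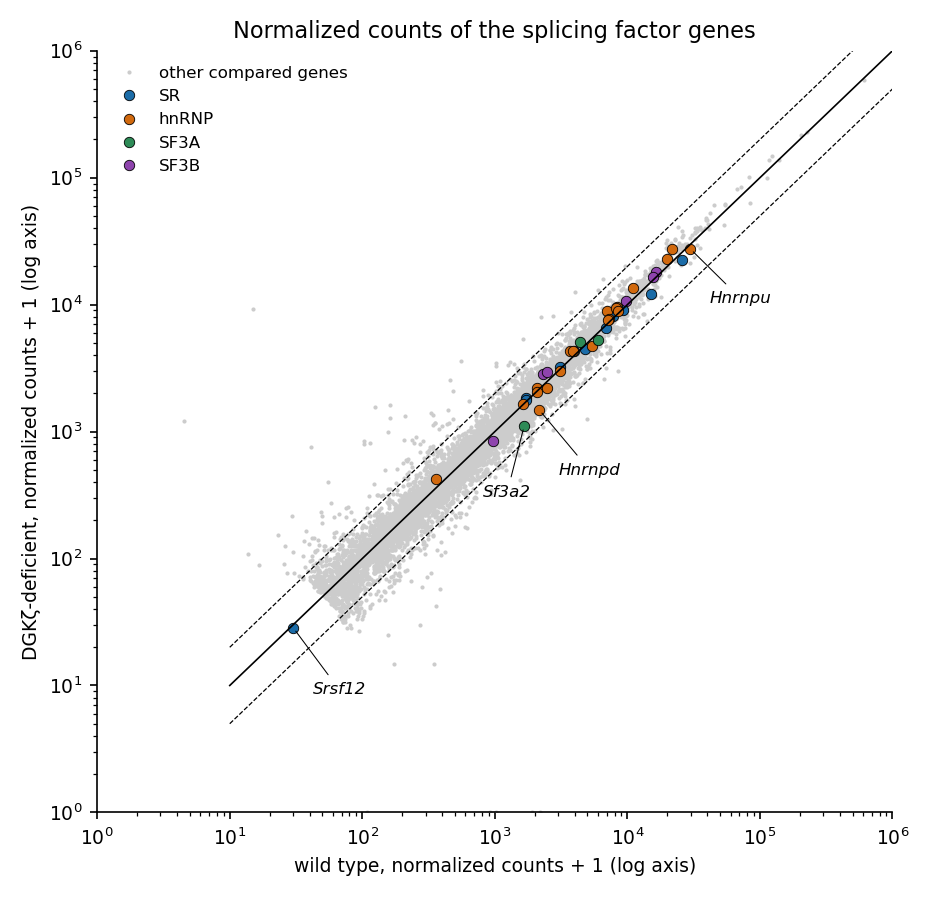
Normalized counts plus 1 in the wild-type (horizontal) and deficient library (vertical), both on log axes, 1 point per gene. The solid line marks equal values and the dashed lines a 2-fold difference; all 40 splicing factor genes lie between the dashed lines, with Srsf12 at the low end.

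The SR genes had a median near 0, below the 0.055 of all compared genes, and their lowest ratios belonged to Srsf2 and Srsf1. The family median log2 ratio was 0.0098 over 10 compared genes, 5 of them above 0, beside 58.2% of all compared genes. It was -0.045 when recentred, -0.080 at equal totals and -0.041 when the lowest row stood for each gene. Summed over the family, normalized counts were 79721 in the wild-type and 73964 in the deficient library. Srsf2, which encodes the nuclear speckle protein SC35, stood at 14995 normalized counts in the wild-type and 12147 in the deficient library. That is 1.23-fold lower (1.20 to 1.27), with a log2 ratio of -0.30. Its exons overlap those of Mettl23 on the opposite strand over 460 bases and those of Mfsd11 over 288 bases, and the libraries do not mark strand. Mettl23 was read at 715 normalized counts in both libraries and Mfsd11 at 186 and 199, and their part in the Srsf2 value was not tested.

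Srsf1, the founding member of the family and an activator of many exons, was read at 25607 and 22477 normalized counts. The deficient library was 1.14-fold lower (1.12 to 1.16) and the log2 ratio was -0.19. Srsf1 and Srsf2 both lay below the lower quartile of all compared genes, and the other 8 SR genes lay inside the quartile range. Srsf11, an SR-related protein that contacts U2AF, stood at 4749 and 4450, which is 1.07-fold lower (1.02 to 1.12). At the other end, Srsf5 stood at 3954 and 4274 normalized counts, so the deficient library was 1.08-fold higher (1.03 to 1.13). Srsf9 was read at 1709 and 1835, 1.07-fold higher (1.0002 to 1.15), and Srsf7 at 7758 and 8127, 1.05-fold higher (1.01 to 1.08). These genes had the 3 highest log2 ratios of the SR family, and the highest was 0.11. Srsf6 was read at 9226 and 9059 normalized counts, which is 1.02-fold lower (0.987 to 1.05). For Srsf4, at 1709 and 1765, the interval of the fold also included 1 (0.961 to 1.11). The Srsf4 transcript overlaps an opposite-strand noncoding gene, Gm12992, over 1532 bases, and that gene was read at 1346 and 1370.

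Transcript rows of 1 gene share reads, and where 1 row contains the exons of another, the reads that only the longer row holds fall on the additional sequence. Exon structures were taken from GENCODE M21 on GRCm38 by transcript accession, which matched 83 of the 84 rows, 4 of them to transcripts annotated for nonsense-mediated decay. The counts themselves were made on mm9, and ends of transcripts may differ between annotations. For Srsf3 and Srsf7 the longest row carries the decay exon, a cassette of 456 bases in Srsf3 (chr17:29039454-29039909, plus strand) and of 460 bases in Srsf7 (chr17:80204622-80205081, minus strand). Neither is part of the protein-coding form. The windows below, chr17:29039470-29039499 and chr17:80205042-80205071 on GRCm38, show the first in-frame stop codon of each exon in capitals, at base 32 of the Srsf3 exon and base 26 of the Srsf7 exon, since this stop is what marks the transcript for decay.
Srsf3: cttctcaccaccctcTGAatctgcattagc
Srsf7: ttgagtcagtcgcctTGAttcagaatgtca

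Both decay exons were read in both libraries. Srsf3, which encodes the smallest SR protein, stood at 6890 normalized counts in the wild-type and 6603 in the deficient library. Reads held only by its row with the decay exon were 489 in the wild-type library, or 4.14% of the reads of that row (3.79 to 4.51), and 144 in the deficient one, or 3.74% (3.16 to 4.39). For Srsf7 the corresponding reads were 540, or 4.06% (3.73 to 4.41), and 163, or 3.44% (2.94 to 3.998). The share of the deficient library minus that of the wild type was -0.40 percentage points for Srsf3 (95% counting interval -1.07 to 0.33) and -0.62 for Srsf7 (-1.21 to 0.025), so both intervals include 0. These are shares of reads over a whole transcript and not the fraction of molecules that include the exon.

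Srsf10 had the widest spread of values between its transcript rows. It encodes an SR protein that represses splicing when dephosphorylated, as in heat shock and mitosis. By its row of highest mean it stood at 3096 and 3200 normalized counts, a fold of 1.03 (0.980 to 1.09). The log2 ratios of its 4 rows ran from -0.15 to 0.048, a range of 0.20, whereas the next widest range among these genes was 0.066 for Hnrnpa1. Of the 18 splicing factor genes with several rows, 1 had rows that differed by at least 0.1, compared with 9.16% of all 2927 such genes. The rows of Srsf10 differ in their last exon: one kind ends in a proximal exon and the other in a distal one, after the same first 5 exons. The first 30 bases of each are shown because they are where the coding sequences part, at chr4:135863729-135863758 for the proximal and chr4:135867126-135867155 for the distal exon (GRCm38, plus strand). The stop codon begins at base 296 of the proximal and at base 59 of the distal exon.
Srsf10 proximal: attcaaacaccgaaatcgatctttttcaag
Srsf10 distal: accaaactgcagctggaatacccagtacag

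The row with the proximal exon had 5309 reads in the wild-type and 1866 in the deficient library, and the row with the distal exon had 4402 and 1345. Proximal-row reads thus exceeded distal-row reads by 907 in the wild-type library, or 17.1% of the proximal row. In the deficient library the excess was 521 reads, or 27.9%. In normalized counts the excess was 529 in the wild-type and 894 in the deficient library. Because the last exons are not nested, the excess is the proximal reads minus the distal reads. It therefore carries no binomial interval and cannot be divided into more of one or less of the other. The gene was picked out after the rows had been seen, and whether the excess differs beyond counting error was not tested.

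**Figure D3:**
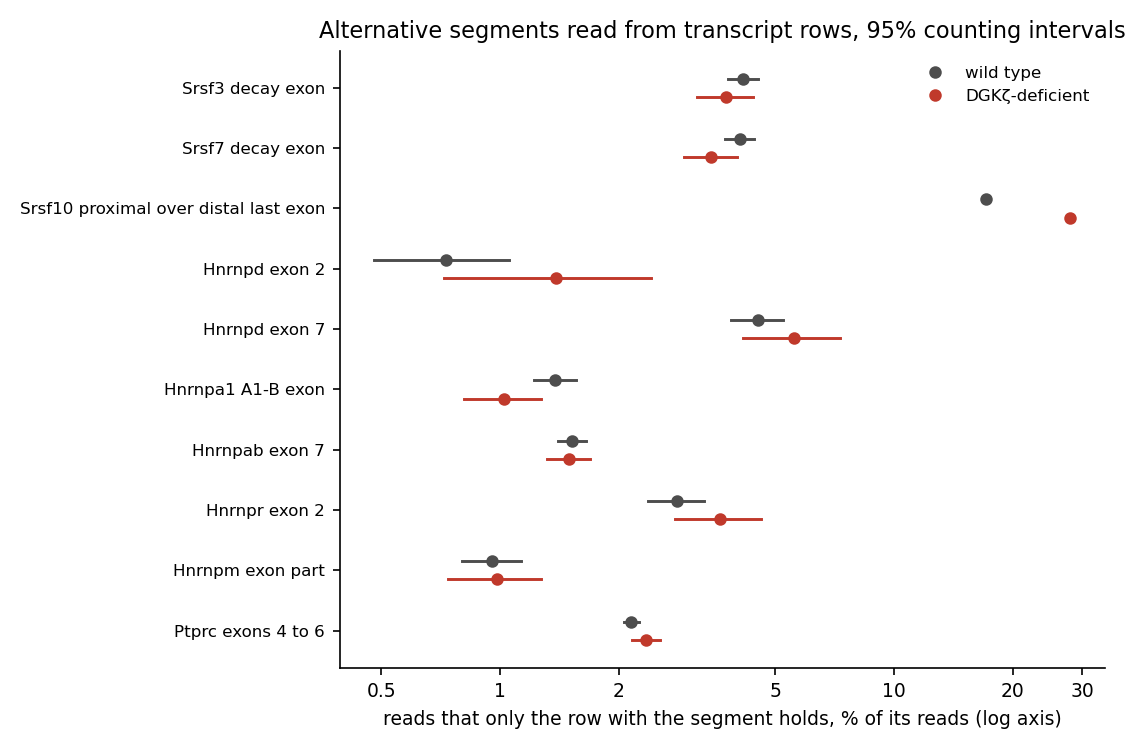
Reads that only the row with the named segment holds, as a percentage of the reads of that row on a log axis, in the wild-type (grey) and deficient (red) library, with exact 95% binomial intervals as lines. For Srsf10 the value is the excess of the proximal over the distal row, at 17.1% and 27.9%, which has no interval.

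The hnRNP genes had a median log2 ratio of 0.083, and at equal totals the median was -0.0063. Of the 20, 14 were above 0 (70%), beside 58.2% of all compared genes and 66.4% of those with a mean of at least 1000. The family summed to 156089 normalized counts in the wild-type and 169739 in the deficient library. Its highest ratios belonged to Hnrnpab, Hnrnpc and Hnrnpa1. Hnrnpab, whose protein binds single-stranded DNA and RNA and is named also as a CArG box factor, was read at 21777 and 27488 normalized counts. This is 1.26-fold higher in the deficient library (1.24 to 1.29), with a log2 ratio of 0.34, the highest of all 39 genes. The gene overlaps Phykpl on the opposite strand over 809 bases, and Phykpl was read at 1055 and 1116. Hnrnpc, which encodes a binder of uridine tracts, stood at 7045 and 8865, 1.26-fold higher (1.22 to 1.30).

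Hnrnpa1, the classical splicing silencer, had 10970 normalized counts in the wild-type and 13423 in the deficient library. The deficient library was 1.22-fold higher (1.19 to 1.26), and the log2 ratios of its 3 rows ran from 0.29 to 0.36. Hnrnpa1 has many processed pseudogenes, so its reads are uncertain where the authors' counting could split them. Its alternative exon of 159 bases, which lengthens the glycine-rich tail in the A1-B form, held 260 reads, or 1.38% (1.22 to 1.56), and 80 reads, or 1.02% (0.811 to 1.27). The difference was -0.36 percentage points (-0.63 to -0.066), an interval that leaves out 0. Among the nested segments shown, this was the one whose interval of the difference did so. The segments were chosen after their values were seen, and the intervals are not adjusted for their number. Not all differences between rows are shown. The Hnrnpa1 row annotated for decay had 17535 and 7635 reads, against 18553 and 7747 for the row without the 159-base exon. That difference was not assigned to a segment and was not tested. Hnrnpa2b1, the close relative of Hnrnpa1, stood at 8233 and 9398 normalized counts, with a log2 ratio of 0.19. Hnrnpa0 was at 3896 and 4294 (0.14 on the log2 scale). Hnrnpa3 lay on the other side, at 2482 and 2202 normalized counts, which is 1.13-fold lower (1.06 to 1.20). The genes of the A and B type were therefore not of 1 direction.

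Hnrnpu gave the highest mean of normalized counts of the family. It encodes the nuclear scaffold protein that binds chromatin and RNA, and was read at 29846 and 27471 normalized counts. The deficient library was 1.09-fold lower (1.07 to 1.11). The overlapping opposite-strand gene Cox20 stood at 527 and 415 normalized counts and shares 804 exonic bases with it. Hnrnpk, a binder of cytidine-rich RNA, was read at 20026 and 23082, which is 1.15-fold higher (1.13 to 1.18). Thus the most heavily read hnRNP genes stood in both directions, with Hnrnpab and Hnrnpk above 0 and Hnrnpu below.

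Hnrnpf and the Hnrnph genes encode binders of guanosine runs. Hnrnpf stood at 3701 and 4332 normalized counts (log2 ratio 0.23). Hnrnph1 was at 7232 and 7681 (0.087), Hnrnph2 at 1637 and 1640 (0.0024) and Hnrnph3 at 360 and 418 (0.21), the last with a counting interval of the fold from 0.999 to 1.35. Hnrnph1 and Hnrnph2 are close paralogs, and reads that fit both could not be checked. Hnrnpm was read at 8418 and 9614 (0.19), Hnrnpul1 at 7116 and 7520 (0.080) and Hnrnpul2 at 2086 and 2190 (0.070). Hnrnpr stood at 3092 and 2991 (-0.048), with an interval of the fold across 1. Apart from Hnrnpf, all of these lay within the quartile range of all compared genes.

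Hnrnpd was the 1 of 20 hnRNP genes with a log2 ratio of -0.5 or less, where 6.75% of all compared genes had one. It encodes AUF1, which binds AU-rich elements and controls the decay of cytokine and cell cycle mRNAs. The gene had 2162 normalized counts (3708 reads) in the wild-type and 1480 (863 reads) in the deficient library. The difference is 1.46-fold (1.36 to 1.575, log2 ratio -0.54), and its 4 rows, which share nearly all their reads, gave log2 ratios from -0.57 to -0.54. Its exons overlap a noncoding antisense gene, Gm17092, over 385 bases. Hnrnpdl, the paralog of Hnrnpd, stood at 5396 and 4761 normalized counts, which is 1.13-fold lower (1.09 to 1.18). Of the 20 hnRNP genes, Hnrnpd and Hnrnpdl had the lowest 2 log2 ratios.

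The 4 rows of Hnrnpd are the 4 combinations of an alternative exon 2 of 57 bases and an exon 7 of 147 bases, which give the protein isoforms of AUF1 their different affinity and stability. Both lengths are multiples of 3, so inclusion keeps the reading frame. Exon 2 lies at chr5:99976534-99976590 and exon 7 at chr5:99963731-99963877 (GRCm38, minus strand), and both are coding. Their sequences are printed because the reads below fall on them. Like those of Srsf3 and Srsf7, the percentages below are shares of the reads of a whole transcript row. They are not the fraction of molecules that include the exon.
Hnrnpd exon 2: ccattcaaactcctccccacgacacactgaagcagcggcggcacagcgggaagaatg
Hnrnpd exon 7: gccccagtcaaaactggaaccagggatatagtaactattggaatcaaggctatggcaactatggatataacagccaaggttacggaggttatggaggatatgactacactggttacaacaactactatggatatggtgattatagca

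Exon 2 of Hnrnpd held 27 reads in the wild-type library, or 0.728% of the row (0.480 to 1.06), and 12 in the deficient one, or 1.39% (0.721 to 2.42). Exon 7 held 167 reads, or 4.50% (3.86 to 5.22), and 48 reads, or 5.56% (4.13 to 7.31). The differences were 0.66 percentage points for exon 2 (-0.016 to 1.71) and 1.06 for exon 7 (-0.46 to 2.90). Both intervals include 0, so a difference in the share of either exon was not detectable at this depth. For 3 further hnRNP genes the interval of the difference also included 0. The 141-base exon of Hnrnpab held 1.53% and 1.50% of reads, exon 2 of Hnrnpr (169 bases) 2.81% and 3.61%, and part of an exon of Hnrnpm 0.956% and 0.981%.

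Hnrnpl and Hnrnpll encode related proteins that bind CA-rich RNA and repress the variable exons of Ptprc. Hnrnpl stood at 8545 normalized counts in the wild-type and 8836 in the deficient library, a fold of 1.03 (1.001 to 1.07). Hnrnpll was read at 2069 and 2053, with an interval of the fold from 0.929 to 1.06. Neither log2 ratio reached 0.1 in size. Ptprc itself was read at 53381 and 42285 normalized counts, a level 1.26-fold lower in the deficient library (1.24 to 1.28). Its exons 4 to 6, of 141, 147 and 129 bases, together held 1973 reads, or 2.16% of the Ptprc row (2.06 to 2.25), and 580 reads, or 2.35% (2.17 to 2.55). The difference was 0.20 percentage points (-0.0085 to 0.41), so at this depth a difference in the share of the exons that Hnrnpll is known to repress was not detectable.

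The SF3A genes had ratios on both sides of 0, and 1 of them, Sf3a2, was the lowest of all 39 genes. The complex has 3 subunits and joins the U2 snRNP before the branch point is bound. Sf3a2 had 1664 normalized counts (2853 reads) in the wild-type and 1108 (646 reads) in the deficient library. This is 1.50-fold lower (1.38 to 1.64), with a log2 ratio of -0.58. Plekhj1 overlaps Sf3a2 on the opposite strand over 429 bases and was read at 901 and 1029 normalized counts, in the other direction. Sf3a1, the largest subunit, which contacts the RNA of the U1 snRNP, stood at 5962 and 5255 normalized counts, which is 1.13-fold lower (1.09 to 1.18). Sf3a3 was read at 4425 and 5056, 1.14-fold higher (1.09 to 1.19). So the subunits of 1 complex, which are present in equal numbers in the protein complex, had transcripts that differed by different amounts and signs. The median of the 3 was -0.18 and became 0.0050 without Sf3a2, the subunit gene that overlaps another gene.

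The SF3B genes had a median log2 ratio of 0.13, and the median was 0.042 at equal totals. Of the 6, 5 were above 0, beside 58.2% of all compared genes and 66.4% of those with a mean of at least 1000. Sf3b1, which encodes the clamp around the branch point and is often mutated in myeloid neoplasms, was read at 16560 and 18215 normalized counts. The deficient library was 1.10-fold higher (1.08 to 1.12). Sf3b3, a large scaffold subunit, stood at 15472 and 16472, 1.06-fold higher (1.04 to 1.09), and Sf3b2, which binds near the branch point, at 9815 and 10717, 1.09-fold higher (1.06 to 1.12). These are the heavily read SF3B genes, and none was more than 0.14 on the log2 scale. The small subunits had the higher ratios. Sf3b5 was read at 2290 and 2866 normalized counts, which is 1.25-fold higher (1.18 to 1.33). Sf3b6, the subunit that lies at the branch point adenosine, stood at 2460 and 2934, 1.19-fold higher (1.13 to 1.26). Sf3b4, which contacts the intron upstream of the branch point, was the exception at 962 and 849 normalized counts, which is 1.13-fold lower (1.02 to 1.26).

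In the authors' deposited table of the same comparison, log2 fold changes of the 40 genes ran from -0.40 for Sf3a2 to 0.26 for Hnrnpab. The log2 ratios used here were -0.58 and 0.34 for these genes, so the authors' values are another measure and smaller in size. The authors' p-values for these 40 genes rest on the same 2 libraries, 1 per genotype. They cannot measure the spread between cultures and are not used here to call a difference or its absence. Hnrnpd had a log2 fold change of -0.38 in the authors' deposited table, against a log2 ratio of -0.54 here.

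Other genes of splicing and of the steps around it were taken from 9 lists with 152 compared genes. None of the 152 differed by 2-fold, as 2.60% of all compared genes did. The lists for nonsense-mediated decay and for nuclear import and export are described at the end. The U1, U2AF and branch point list had a median log2 ratio of 0.10, with 15 of 19 genes above 0. Its highest genes were Rbm17 (0.40) and U2af1 (0.31), the small subunit of the factor that marks the 3′ splice site. Its lowest were Uhmk1 (-0.19), a kinase of SF1, and Sf1 (-0.57). Sf1 encodes the protein that binds the branch point before SF3B does, and was read at 5309 and 3567 normalized counts, which is 1.49-fold lower (1.42 to 1.56). The Sm and LSm core, the rings around the small nuclear RNAs, had a median of 0.20 with 12 of 14 compared genes above 0. Snrpe (0.33) and Lsm3 (0.30) were its highest and Lsm6 (-0.15) and Lsm8 (-0.086) its lowest. In the list of the tri-snRNP and activation factors 27 of 28 genes were above 0 and the median was 0.15. Bcas2 (0.32) and Usp39 (0.30) stood at its top, with Prpf19 (0.0038) and Xab2 (-0.033) at its bottom. For comparison, the median was 0.055 over all compared genes, with 58.2% above 0, and 0.095 over those with a mean of at least 1000, with 66.4% above 0. The U1, U2AF and branch point list thus lay near the latter. These lists were not recomputed at equal totals, a scaling that shifted the median of all compared genes by -0.088. Genes with smaller positive log2 ratios, such as Dhx38 (0.040) and Prpf19 (0.0038) of the tri-snRNP list, could fall below 0 under it.

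The lists of splicing regulators had lower medians than those 3. SR protein kinases and phosphatases had a median of 0.055, with 7 of 13 genes above 0. Clk3 (0.47) and Ppp1r8 (0.29) were highest, and the kinase genes Clk2 (-0.33) and Clk4 (-0.14) lowest. SR-related and exon junction proteins had a median of 0.025 over 23 genes, with 13 above 0. Of the 23 genes, 3 reached -0.5 or less, beside 6.75% of all compared genes. Scaf1 had a log2 ratio of -0.77, Srrm2 one of -0.68 at 13382 and 8362 normalized counts, and Srrm1 one of -0.60 at 3663 and 2418. Srrm1 and Srrm2 encode coactivators rich in arginine and serine, Srrm2 being a core protein of nuclear speckles. Rbm8a (0.49) and Magoh (0.26), the paired core proteins of the exon junction complex, were the highest of that list. The hnRNP proteins under other symbols had a median of -0.14, with 2 of 12 genes above 0. Ptbp3 (-0.40) was lowest, and Raly (0.029) and Pcbp4 (0.0096) were highest. Ptbp1, the polypyrimidine tract repressor, was read at 20290 and 19822 normalized counts. Of the other splicing regulators 8 of 22 compared genes were above 0, with a median of -0.070. Sfpq was the lowest, at 9555 and 5682 normalized counts, which is 1.68-fold lower (1.62 to 1.75), followed by Khdrbs1 (-0.33), while Taf15 (0.34) and Nono (0.18), the partner of Sfpq in paraspeckles, were highest.

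**Figure D4:**
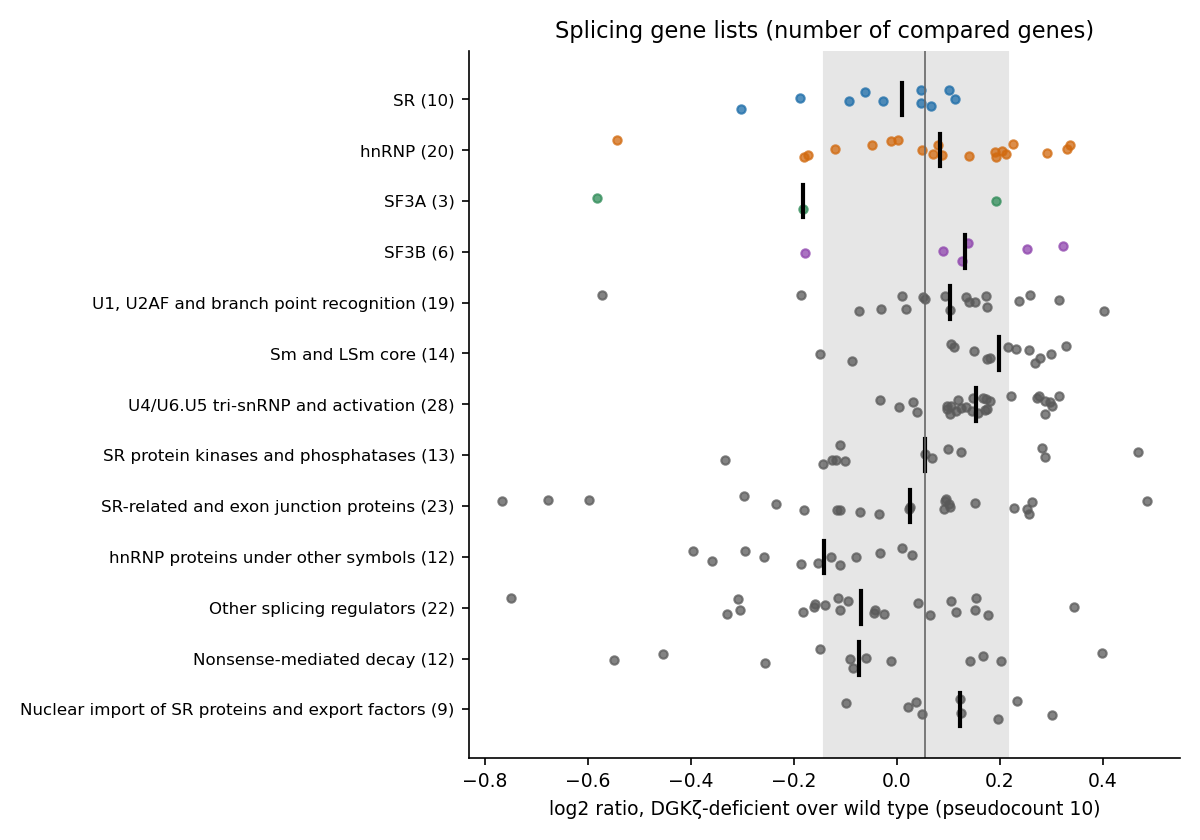
Log2 ratio (deficient over wild type) of each compared gene in the splicing factor families (coloured) and in the other splicing lists (grey), 1 point per gene with an arbitrary vertical offset, and the list median as a black bar. The grey band and vertical line are the quartile range and median of all compared genes (0.055); the tri-snRNP list has 27 of 28 points above 0, and the hnRNP proteins under other symbols 2 of 12.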

How the data were processed

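Per the submitters' processing notes, STAR version 2, DESeq and build mm9 were used, with no role given. The sources used here name neither a counting program nor an annotation. The authors deposited normalized counts, a signal per RefSeq transcript row and library. All values (100%, relative tolerance 0.0001) were whole multiples of 1 read, worth 0.583 normalized counts in the wild-type and 1.71 in the deficient library, so whole reads were recovered. A test on them has no residual degrees of freedom with 1 library per genotype, and none was run. The authors also deposited log2 fold changes, p-values, adjusted p-values and a score per row, of which only the log2 fold changes are given here.

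Of 33018 rows, 1 (Alg6, shifted values) was left out. The log2 ratio used a pseudocount of 10, which understates the change of low genes, and genes with a mean of at least 50 were compared. Fold and share intervals are exact (Clopper-Pearson, 95%), and intervals of differences of shares are Newcombe's. Without molecular identifiers, reads are not independent molecules, so the intervals cover counting error only. The log2 ratio and the fold interval were tested on simulated reads that held counting error only (Python 3.11.15, pandas 2.3.3, scipy 1.17.1). The segment shares, their differences and the GC trend were not tested in this way. The splicing factor genes and gene lists were chosen with earlier results of these data known. Full values were given for genes past 0.5 and the 3 highest, 3 lowest and 3 most read genes of each family, and of other splicing lists the 2 highest and 2 lowest; cell type, G2/M and naive lists are given by sums or medians and genes past 2-fold; Ptprc, Ptbp1, Srrm1 and the segments were chosen after their values were seen. Some genes that this rule names are not reported here.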

Additional observations from a re-analysis of the deposited data

How the results depend on the processing

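The pseudocount (1 or 50), the expression minimum (none, or 200), recentring and the choice of transcript row left the medians of the hnRNP, SF3A and SF3B genes on their side of 0, while the SR median, near 0, ran from -0.080 to 0.048 over all alternatives. No splicing factor gene was 2-fold different under any alternative in which this was counted. Equal library totals, a shift of -0.088, gave medians of -0.020 (all splicing factor genes), -0.080 (SR), -0.0063 (hnRNP), -0.27 (SF3A) and 0.042 (SF3B). Of 3 alternatives chosen after seeing the data, leaving out the 18 genes that overlap another gene gave medians of 0.0050 (SF3A) and 0.25 (SF3B) and 0 genes at -0.5 or less, since Sf3a2 and Hnrnpd are among the 18. Removing the trend with GC content, which also recentres the compared genes, gave 0.0067 (all) and -0.27 (SF3A), and the cause was not tested. Recentring alone gave 0.015 (all) and -0.24 (SF3A). A minimum of 1000 moved no family median beyond counting error. Without an expression minimum 885 of 21610 genes were past 0.5 higher and 2691 lower, in place of 660 and 710, as low genes entered. Of 234 values of single genes under alternatives, 50 moved beyond counting error. Srsf10 was -0.040 by the mean of its rows and -0.15 by its lowest row. No paired analysis was possible because there is 1 library per genotype. The lower depth of the deficient library, 13464169 reads against 37211969, limits the segment shares.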

Other observations

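The lists for nonsense-mediated decay and for nuclear import and export had medians inside the quartile range of all compared genes (-0.14 to 0.22). Several of their genes lay outside that range, with Upf1 the furthest from 0. Of 12 nonsense-mediated decay genes 4 had a log2 ratio above 0, beside 58.2% of all compared genes, and the median was -0.073. Upf1, the helicase at the centre of the pathway, was read at 4037 and 2754 normalized counts, which is 1.47-fold lower (1.39 to 1.55), and Smg6, the endonuclease, at 1376 and 1002. Upf3b (0.40) and Smg8 (0.20) had the highest ratios. Of 9 genes for nuclear import of SR proteins and mRNA export, 8 were above 0 with a median of 0.12. Alyref, an export adaptor, stood at 5251 and 6471 normalized counts, which is 1.23-fold higher (1.19 to 1.28), and Tnpo3, the importin of SR proteins, at 5697 and 6695, 1.18-fold higher (1.13 to 1.22). Thoc2 (-0.099) and Thoc1 (0.021) were the lowest. Neither list held a gene 2-fold different, and these values have no replicate check.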
